A study of Mus musculus with 6 samples.

Results

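The genes described here encode the inner face of the nuclear envelope. They are 4 genes whose proteins carry the LEM domain (Lemd3, Lemd2, Emd and Tmpo), the 3 lamin genes (Lmna, Lmnb1 and Lmnb2), and the partners Lbr, Banf1 and Sun1. They were chosen by their function around Lemd3, which itself was picked from the largest differences between the genotypes compared here. The contrast between genotypes therefore chose the set, and the values of the 10 genes are given as a description with no test. All 10 were measured, of 19938 genes with a probe set that names 1 gene.

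The samples were fully grown oocytes at the germinal vesicle stage, the stage at which the oocyte nucleus is large. How far transcription was silent in these oocytes was not measured. Expression was measured on 6 arrays. Of these, 3 held oocytes of Marf1 ENU/ENU females, which carry a chemically induced mutation on both copies of Marf1, and 3 held oocytes of Marf1+/+ females, called WT here. Females of both genotypes carried C57BL/6J and C3HeB/FeJ strain backgrounds (C57BL/6J;C3HeB/FeJ), received 5 IU of equine chorionic gonadotropin at 21 days of age, and gave oocytes 46 hours later. The cumulus cells were removed by pipetting. The labels do not say how many females or oocytes a sample held, and separate animals are not stated, so the spread between samples may be technical.

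The nuclear envelope consists of an outer membrane, continuous with the endoplasmic reticulum, and an inner membrane that lies on a meshwork of lamin filaments. LEM-domain proteins sit in or at the inner membrane and bind Banf1, a small protein that bridges DNA, so that chromatin is held at the nuclear rim. In an oocyte that resumes meiosis this envelope, the wall of the germinal vesicle, is taken apart after lamins and membrane proteins are phosphorylated, and it forms again around the pronuclei after fertilisation.

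Lemd3 stood apart from the other 9 genes. Lemd3 (probe set 10372815) encodes a protein of the inner nuclear membrane, also known as MAN1, that binds receptor-regulated Smads and dampens TGF-beta and BMP signalling. Its log2 expression was 8.74, 8.44 and 8.24 in mutant replicates 1 to 3, against 3.54, 4.07 and 3.95 in WT replicates 1 to 3. Every mutant array was far above every WT array, and the gap between the groups was many times the spread within either of them. The means were 8.47 ± 0.25 in the mutant and 3.85 ± 0.28 in WT (SD, n = 3 each), a log2 difference of 4.62 (SE 0.20), or 24.6-fold. This was the sixth largest difference in size of the 19938 genes (rank 6). The WT mean lay below 4.51, the 95th percentile of the mean levels of 1190 olfactory and vomeronasal receptor genes, which serves here as the level of a dim signal and is called the receptor-gene level. The fold may therefore be a lower bound.

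**Figure D1:**
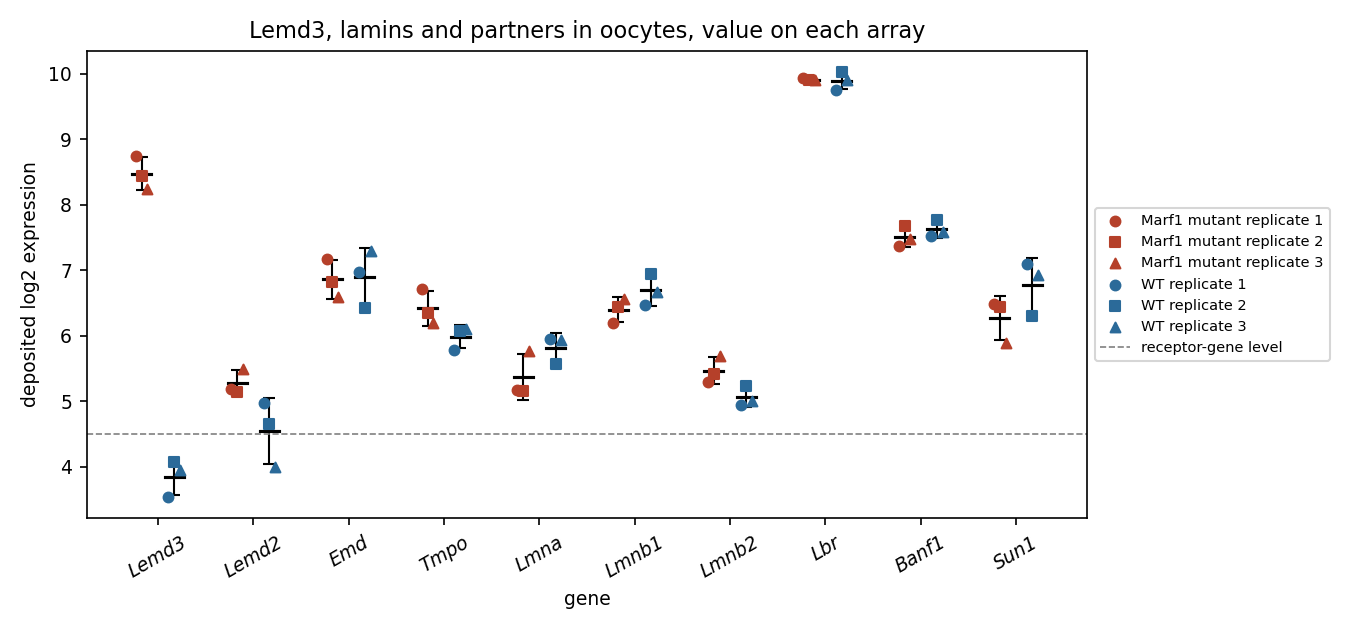
Deposited log2 expression (vertical axis) of the 10 genes on each array, with the Marf1 mutant in red left of WT in blue; bars are means with SD (n = 3 each), and the dashed line is the receptor-gene level of 4.51. The Lemd3 values lie at 8.24 to 8.74 in the mutant and at 3.54 to 4.07 in WT, while the other 9 genes lie much closer together between genotypes.

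The other LEM-domain genes of the set had smaller differences than Lemd3. Lemd2 (probe set 10449327), the closest relative of Lemd3, whose protein recruits membrane-sealing machinery to the envelope in human cells, had values of 5.19, 5.14 and 5.50 in the mutant and 4.98, 4.66 and 4.00 in WT. All mutant values were above all WT values, but the WT arrays spread over a whole log2 unit and WT replicate 3 was the lowest. The difference was 0.73 (SE 0.26), and it was 0.46 without WT replicate 3. Tmpo (probe set 10371888), which encodes the LAP2 proteins, had values of 6.71, 6.35 and 6.20 in the mutant and 5.78, 6.08 and 6.10 in WT. The groups did not overlap, though the lowest mutant array and the highest WT array were nearly equal, and the difference was 0.43 (SE 0.18), or 0.29 without mutant replicate 1. Emd (probe set 10600341) encodes emerin, the protein lost in an X-linked form of Emery-Dreifuss muscular dystrophy. Its values were 7.18, 6.82 and 6.59 in the mutant and 6.98, 6.43 and 7.30 in WT. The groups were mixed through each other, with a difference of -0.04 and a 95% interval of -0.63 to 0.55. The sign of the Emd difference depended on which array was left out, with values from -0.28 to 0.16.

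Among the lamins the differences lay on both sides of 0, with overlapping groups for Lmna and Lmnb1. Lmna (probe set 10499394), which encodes lamins A and C, had values of 5.17, 5.16 and 5.77 in the mutant and 5.95, 5.57 and 5.94 in WT. Mutant replicates 1 and 2 were below all WT arrays, and mutant replicate 3 was among them. The difference was -0.45 (SE 0.21), and it was -0.66 without mutant replicate 3. Lmnb1 (probe set 10455813), a B-type lamin that stays anchored in the membrane by a lipid tail, had values of 6.19, 6.44 and 6.57 in the mutant and 6.47, 6.94 and 6.67 in WT. The groups overlapped, with a difference of -0.29 (SE 0.18). It was -0.17 without WT replicate 2 and -0.19 without mutant replicate 1. Lmnb2 (probe set 10371012), the other B-type gene, had values of 5.30, 5.42 and 5.69 in the mutant and 4.95, 5.24 and 5.00 in WT. Here the lowest mutant array was just above the highest WT array, with a difference of 0.41 (SE 0.16).

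Of the partners of these proteins, Lbr and Banf1 had the smallest SE. Lbr (probe set 10360745), the lamin B receptor, which tethers heterochromatin and is also a sterol reductase, had values of 9.93, 9.90 and 9.90 in the mutant and 9.76, 10.02 and 9.91 in WT. The mutant arrays lay within the range of the WT arrays, and the difference was 0.01 with a 95% interval of -0.30 to 0.32; it ran from -0.06 to 0.08 with 1 array left out. Banf1 (probe set 10465005) had values of 7.37, 7.67 and 7.48 in the mutant and 7.53, 7.77 and 7.58 in WT. These groups overlapped too, with a difference of -0.12 and a 95% interval of -0.46 to 0.22, and with 1 array left out it ran from -0.20 to -0.05. A second Banf1 row (probe set 10601471) lay below the receptor-gene level, at 3.97 ± 0.16 in the mutant and 3.99 ± 0.12 in WT (SD, n = 3 each), and was not used. Sun1 (probe set 10526897) encodes the inner-membrane side of the bridge to the cytoskeleton, which holds telomeres at the envelope in mouse meiosis. It had values of 6.49, 6.44 and 5.89 in the mutant and 7.10, 6.31 and 6.93 in WT. The groups overlapped through WT replicate 2, and the difference was -0.51 (SE 0.25). Without mutant replicate 3 it was -0.32.

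**Figure D2:**
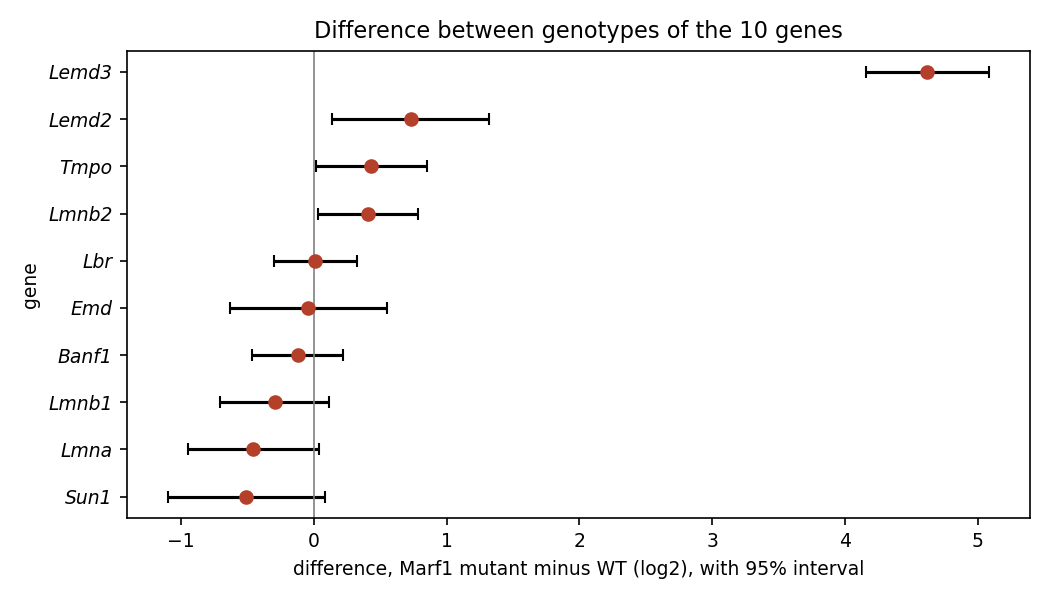
Difference in mean log2 expression, Marf1 mutant minus WT (horizontal axis), of each of the 10 genes, with the 95% interval of the fit (n = 3 each). Lemd3 lies at 4.62, and the other 9 genes lie between -0.51 and 0.73.

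Counted over the set, 1 of the 10 genes (Lemd3) was past the threshold of an adjusted p of 0.05 (limma, adjusted over all 35556 probe sets), and 9 were not. Of all genes 10.4% were past it, 6.4% higher and 4.04% lower. All 3 mutant arrays lay above all 3 WT arrays in 4 of the 10 (Lemd3, Lemd2, Tmpo and Lmnb2) and below them in 0, against 12.9% and 17.7% of all genes, and the groups overlapped in 6. Since this contrast chose the set, nothing is read from these counts. The median difference of the 10 genes was -0.01, against -0.04 over all genes. The difference of 9 of the 10 genes was at most 0.73 in size, and the SE of the 10 differences ran from 0.13 to 0.26.

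The arrays bear on these values in the following way. Array medians were 4.56 to 4.76 in the mutant and 4.60 to 4.67 in WT. Mutant replicate 3 stood apart, correlating at r = 0.970 to 0.973 with the other mutants, where mutant replicates 1 and 2 correlated at 0.985 and the WT arrays with each other at 0.984 to 0.985. Marf1 itself was lower in the mutant, at 6.18 ± 0.21 against 9.23 ± 0.08 in WT (SD, n = 3 each), a log2 difference of -3.05 (limma adjusted p = 1.00e-04); where its probes lie relative to the mutation was not examined. Without mutant replicate 3 the Lemd3 difference was 4.74. As deposited, 61.5% of the 2765 probe sets past the threshold were higher. Each other fit called its own probe sets. The share was 73.8% of 2737 after cyclic loess normalization and 56.2% of 3162 after quantile normalization. It was 53.9% of 3568 where rows below the median level were left out. With 1 array left out, the share ran from 68.0% of 2804 (without mutant replicate 3) to 78.3% of 1368 (without WT replicate 3). In whole-oocyte samples, fewer cells of a kind and less RNA per cell cannot be told apart, and since all arrays were normalized together, each difference is measured against the bulk of the probe sets.

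The label of the cells was checked against markers. Their counts past the threshold are to be read against 6.4% of all genes higher and 4.04% lower. All 14 oocyte markers were above the receptor-gene level on average, with mean log2 levels per array of 9.67 to 9.98 in the mutant and 9.89 to 10.09 in WT; of these Kit fell and 13 were not past the threshold. Of 12 measured markers of cumulus and granulosa cells, 2 rose and 1 fell. Mean levels of the 12 were 4.74 to 5.04 in the mutant and 4.75 to 4.81 in WT. Of the 12, 5 were below the receptor-gene level on average, and 3 (Cyp11a1, Fshr and Ptx3) on all arrays. The cumulus and granulosa markers that moved were Kitl, the ligand of Kit, the orphan receptor Nr5a2 and Ptgs2, a prostaglandin synthase. Kitl rose by 1.94 (limma adjusted p = 7.31e-04), with means of 5.66 in the mutant and 3.72 in WT. Nr5a2 rose by 1.46 (limma adjusted p = 0.00251) and was far above the receptor-gene level, at 10.17 in the mutant and 8.71 in WT. Ptgs2 fell (mean 4.14 in the mutant and 5.14 in WT, limma adjusted p = 0.0409). Of 7 theca and stroma markers 1 rose (Pdgfra, 0.67), with mean levels of 4.45 to 4.69 in the mutant and 4.41 to 4.60 in WT. Of 5 measured blood, immune and endothelial markers 1 fell, with mean levels of 4.63 to 4.83 in the mutant and 4.69 to 4.99 in WT. It was Pecam1, at 6.20 in the mutant and 7.27 in WT (difference -1.07). Below the receptor-gene level on average were 3 of the 7 theca and stroma markers and 3 of the 5 blood, immune and endothelial markers. The part of other cells in the values of the 10 genes was not tested.

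The rest of the nuclear envelope was then examined in 8 lists of partner genes, 67 genes in all, none of which belongs to the 10. The lists were chosen with earlier results of these data known, so their counts and p-values are read as a description. Of the 67, 11 rose and 1 fell, 17.9% against 10.4% of all genes, and 55 did not pass. The counts of single lists below are to be read against 6.4% of all genes higher and 4.04% lower. All genes include dim ones such as the receptor genes. With rows above the median level alone, 18 of 58 partner genes passed, and 3568 of 17766 probe sets did. Whether the level of the partner genes accounts for their share was not tested. With limma's p left unadjusted, 17 of the 67 were higher and 5 lower at a threshold of 0.05, where 11% of all genes were higher and 13.5% lower. All mutant arrays were above all WT arrays in 19 and below in 11, against 12.9% and 17.7% of all genes. The median difference of the 67 genes was -0.02.

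**Figure D3:**
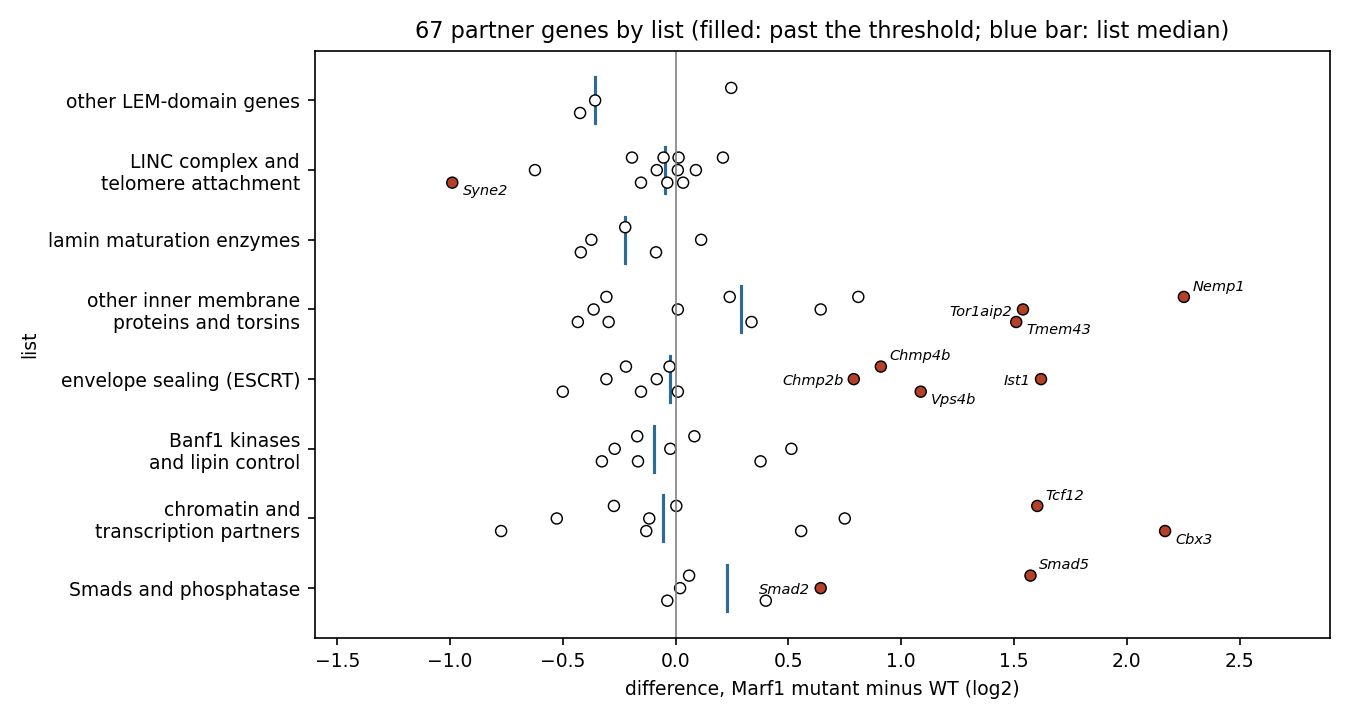
Difference in mean log2 expression, Marf1 mutant minus WT (horizontal axis), of 67 partner genes in 8 lists; filled points are past an adjusted p of 0.05 (limma over all probe sets) and blue bars are list medians. The 11 genes that rose lie between 0.64 and 2.25, and Syne2 is the 1 gene that fell.

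Of 12 genes of other inner nuclear membrane proteins and torsins, the ATPases of the envelope lumen, 3 rose and 0 fell, with a median difference of 0.29. Nemp1 (probe set 10366983), an inner-membrane protein that mouse females need for fertility, had values of 9.54, 9.43 and 8.91 in the mutant and 7.06, 7.11 and 6.95 in WT. The groups were well apart, and the difference was 2.25 (SE 0.19, 4.77-fold, limma adjusted p = 5.20e-04). Tmem43 (probe set 10540105), whose protein binds emerin and lamins, had values of 6.57, 6.30 and 6.69 in the mutant and 5.14, 5.17 and 4.72 in WT. It rose by 1.51 (SE 0.18, limma adjusted p = 0.00253). Tor1aip2 (probe set 10350792), which encodes a torsin activator of the endoplasmic reticulum, rose by 1.54 (SE 0.19, limma adjusted p = 0.00297) on the row used. Its rows disagreed, since the others had differences of 0.07 and 0.18 and were not past the threshold. The mean of its 3 rows gave 0.59 (limma adjusted p = 0.0151, adjusted over genes and not over probe sets). Among those that did not pass, Tor1a, the torsin itself, had a difference of -0.36 (limma adjusted p = 0.328), Tor1aip1, the torsin activator of the inner membrane, 0.81 (limma adjusted p = 0.0954), and Tmem201 -0.31 (limma adjusted p = 0.326).

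ESCRT proteins close holes in the envelope as it forms again. Of 11 genes 4 rose and 0 fell, while the list median was -0.03. Vps4b (probe set 10357064), an ATPase that takes ESCRT filaments apart, had values of 10.09, 10.26 and 10.32 in the mutant and 9.08, 9.25 and 9.08 in WT, a difference of 1.09 (SE 0.14, limma adjusted p = 0.00319). Its second row gave 1.15 (limma adjusted p = 0.0117). Its close relative Vps4a had the opposite sign at -0.50 (limma adjusted p = 0.0921) and did not pass. Ist1 (probe set 10581625), which links ESCRT filaments to Vps4 and spastin, had values of 8.25, 8.13 and 7.41 in the mutant and 6.20, 6.52 and 6.21 in WT. Mutant replicate 3 was the lowest of the mutants but still above all WT arrays, and the difference was 1.62 (SE 0.24, limma adjusted p = 0.00648). The filament subunits Chmp4b and Chmp2b rose by 0.91 (SE 0.16, limma adjusted p = 0.0154) and 0.79 (SE 0.14, limma adjusted p = 0.0168). Chmp4b lost the call without mutant replicate 2 or WT replicates 1 or 3 (adjusted p up to 0.0694), and Chmp2b without mutant replicates 1 or 2 or WT replicates 2 or 3 (adjusted p up to 0.0800). Spast (-0.22), Chmp2a (-0.31) and Chmp3 (0.01) did not pass.

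Syne2 was the gene of the nuclear bridge that moved. Of 12 genes of the LINC complex, which couples the nucleus to the cytoskeleton, and of telomere attachment in meiosis, 0 rose and 1 fell, with a median difference of -0.05. Syne2 (probe set 10396608) encodes nesprin-2, a giant protein of the outer membrane that is held by SUN proteins such as that of Sun1. It had values of 8.80, 8.31 and 8.81 in the mutant and 9.50, 9.76 and 9.63 in WT, a difference of -0.99 (SE 0.18, limma adjusted p = 0.0161). All 4 Syne2 rows were past the threshold, with differences from -1.18 to -0.99. On the row used the call was lost without WT replicate 2 or 3 (adjusted p = 0.0645 and 0.0668) and after cyclic loess normalization (adjusted p = 0.0603). The genes with the next highest levels, Terb1 (-0.62), Kash5 (-0.15) and Syne3 (0.21), did not pass, and neither did Sun2 (0.01, 95% interval -0.36 to 0.38).

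**Figure D4:**
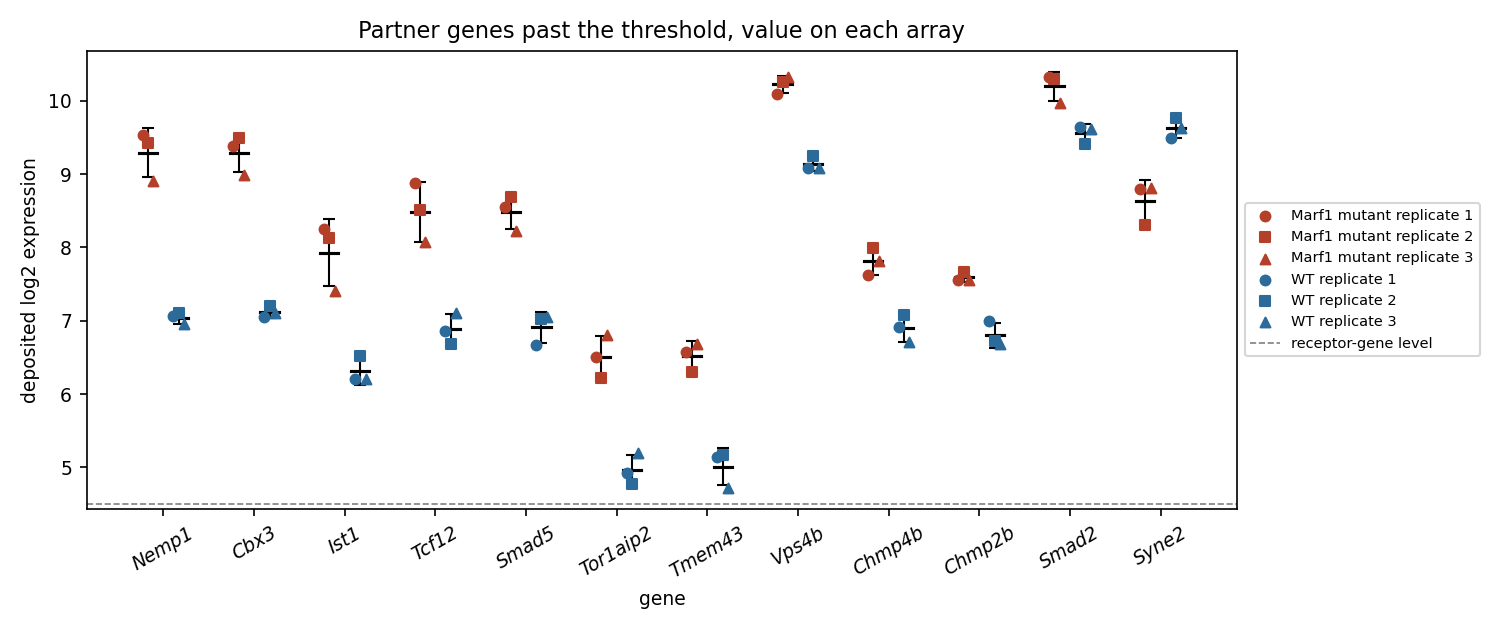
Deposited log2 expression (vertical axis) on each array of the 12 partner genes past the threshold, in order of their difference, with the Marf1 mutant in red left of WT in blue; bars are means with SD (n = 3 each), and the dashed line is the receptor-gene level of 4.51. In each of the 12 genes all mutant arrays lie on one side of all WT arrays, and the WT means lie above the dashed line.

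Of 10 chromatin and transcription partners of lamins, Lbr, emerin and LAP2, 2 rose and 0 fell, with a list median of -0.06. Cbx3 (probe set 10538282), the heterochromatin protein HP1 gamma, had values of 9.38, 9.49 and 8.99 in the mutant and 7.05, 7.20 and 7.10 in WT. The difference was 2.17 (SE 0.17, 4.50-fold, limma adjusted p = 3.81e-04). All 7 Cbx3 rows passed, with differences from 1.23 to 2.33; 6 of the 7 were distinct, as 2 rows held equal values on every array, and which copies of the gene the rows read was not tested. Its relatives Cbx1 and Cbx5 had differences of -0.13 (limma adjusted p = 0.706) and -0.27 (limma adjusted p = 0.337). Tcf12 (probe set 10594879), a basic helix-loop-helix factor whose tie to the envelope is less certain, rose by 1.60 (SE 0.23, limma adjusted p = 0.00529). Ctnnb1, the emerin partner beta-catenin, had a difference of 0.56 (limma adjusted p = 0.0672), Bclaf1 0.00 and Rb1, the retinoblastoma protein gene, -0.53 (limma adjusted p = 0.329).

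The Smads that the Lemd3 protein can bind formed a short list. Of 6 genes, 5 Smads and the Smad phosphatase gene Ppm1a, 2 rose and 0 fell, with a list median of 0.23. Smad5 (probe set 10405605), which carries BMP signals, had values of 8.55, 8.69 and 8.22 in the mutant and 6.67, 7.02 and 7.05 in WT. The difference was 1.57 (SE 0.18, limma adjusted p = 0.00210). Smad2 (probe set 10456764), which carries activin and TGF-beta signals, had values of 10.33, 10.30 and 9.97 in the mutant and 9.65, 9.41 and 9.61 in WT, and rose by 0.64 (SE 0.16, limma adjusted p = 0.0497). This call was at the edge of the threshold and held, of the 6 fits that left out 1 array, only without mutant replicate 3, with an adjusted p of up to 0.159 in the other fits. Ppm1a (0.40, limma adjusted p = 0.133), Smad3 (-0.04) and Smad1 (0.02, 95% interval -0.28 to 0.32) did not pass.

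The last 3 lists held no gene past the threshold in limma; the counts at an unadjusted p are to be read against the 11% of all genes higher and 13.5% lower at it. Of the other LEM-domain genes, Ankle2, whose protein helps Banf1 return to chromatin, had a difference of -0.42 (limma adjusted p = 0.156), Ankle1 0.25 and Lemd1 -0.36; 0 of these 3 genes were higher and 1 lower at an unadjusted p under 0.05. Of the 5 enzymes that mature the lamin tail, Zmpste24, the protease that cuts prelamin A, had -0.42 (limma adjusted p = 0.196), Icmt 0.11 and Fnta -0.22; here 0 were higher and 1 lower at an unadjusted p under 0.05. Of 8 genes of the Banf1 kinases and of the lipin pathway, Lpin2 had -0.27, Vrk1, a kinase that releases Banf1 from DNA, -0.17 and Cnep1r1 -0.17; 1 was higher and 0 lower at an unadjusted p under 0.05.

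Position was a feature that had no role in the choice of the genes. For each of the 10 genes the nearest measured gene on either side was taken from the RefSeq annotation, 20 genes in all. The neighbours of Lemd3 were Msrb3, with a difference of -0.13 (limma adjusted p = 0.812), and Wif1, with -0.15 (limma adjusted p = 0.743). Of the 20 neighbours 1 rose and 0 fell, a share of 5% against 10.4% of all genes. It was Slc25a3, the mitochondrial phosphate carrier gene next to Tmpo, at 7.12, 7.40 and 7.33 in the mutant and 6.19, 6.20 and 6.33 in WT (difference 1.04, SE 0.14, limma adjusted p = 0.00423).

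The genes whose values over the 6 arrays were most like those of Lemd3 were named as a description. By Pearson's correlation these were Zfp622 (r = 0.999), Tsr2 (0.999), Ugdh (0.999), Cdkn2b (0.999) and Metap1 (0.999), with differences of 4.16, 3.37, 3.07, 2.03 and 2.12. The arrays fall into the 2 genotypes, so that any gene with a large rise comes out as alike, and 856 of 17513 genes had r above 0.95. Of the other 9 genes of the set, Tmpo had the highest r with Lemd3, at 0.82, and Lmna the lowest, at -0.74.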

How the data were processed

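RNA from 6 oocyte samples, 3 Marf1 mutant and 3 WT, was measured on 1 array each. Each deposited value is the log2 signal of a probe set, made by the authors with GCOS, Affymetrix Expression Console 1.1 and RMA, per the submitters' processing notes, and rounded to 2 decimals. RMA corrects background and scales arrays to each other; the deposited arrays do not share 1 exact distribution (SD 2.04 to 2.20). The array design's genome build was not used here.

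Probe sets were named by the platform annotation: of 35556 rows, 21789 named 1 gene, 1621 several and 12146 were not named here. Of the 1-gene rows 21698 matched RefSeq GRCm38.p6 by Entrez ID. For a gene with several rows, the row with the highest mean over all arrays was taken, which favours rows that rose.

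The test of genotype was limma's (version 3.58.1, R 4.3.3; lmFit, then eBayes, with no other term; two-sided), with Benjamini-Hochberg adjustment over all rows and a threshold of 0.05. Tables were made with Python 3.11.15. With 3 arrays a group, the number of arrays limits the precision. The fit was tested on simulated data with 200 rows changed, 50 at each size. It called 0% of them at 1.5-fold, 30% at 2-fold, 82% at 4-fold and 92% at 8-fold, with 3 false calls. A gene not past the threshold is therefore not shown to be unchanged. More rows passed in the real data, so the shares found there may differ.

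The members, the 8 partner lists and the 4 marker lists were chosen with earlier results of these data known. The text names all 10 members, every partner and neighbour past the threshold, up to 3 further genes per partner list with the highest mean level, and the 5 genes most like Lemd3. Sun2, Vps4a, Cbx1, Cbx5 and markers past the threshold were named after their values were seen. The marker genes Cyp19a1, Lhcgr, Hba-a1 and Hbb-bt were not analysed here. Alternatives were 3 further normalizations, a filter on dim rows, a trend in the prior variance, a replicate block, leaving out each array and the mean of a gene's rows.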

Additional observations from a re-analysis of the deposited data

How the results depend on the processing

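Over 13 alternatives the Lemd3 difference ran from 4.46 to 4.74, and Lemd3 was the 1 gene of the 10 past the threshold in each. The trend in the prior variance, the replicate block and the filter on dim rows leave a difference unchanged by design. Lemd3 also has only 1 row to average. Its difference stayed at 4.62 in these fits and after median centring. Since this contrast chose Lemd3, its passing is a description and not a test. After cyclic loess normalization the difference of each of the 10 genes was higher than in the main fit. It was 0.14 for Lbr, 0.04 for Banf1, 0.12 for Emd, -0.15 for Lmnb1 and -0.36 for Sun1. The sign changed for Emd and Banf1, and the cause of the shift was not tested. Of the 67 partner genes, 8 to 18 passed. The counts were 15 after cyclic loess, 14 after quantile normalization, 11 after median centring and 13 with a trend in the prior variance. In these fits 2737, 3162, 2062 and 2866 of all 35556 probe sets passed, in the same order. With rows above the median level, 18 of 58 tested passed, beside 3568 of 17766 probe sets. The count was 17 with the mean of a gene's rows, a fit for which the share of all genes was not examined. With 1 array left out the count was 8 to 13. Of the 12 partner genes, 8 passed in every fit that left out 1 array; Syne2, Chmp2b, Chmp4b and Smad2 did not. Smad2 also lost the call after median centring (adjusted p = 0.113). The number of neighbouring genes past the threshold was 1 under each alternative. Over all rows, 2765 passed, against 1368 to 2804 with 1 array left out, where fewer arrays entered the fit. Leaving out any array but mutant replicate 3 lowered that count by over 1.5 times.

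With the sample number as a replicate block, 9 partner genes passed, beside 1946 of 35556 probe sets. Syne2, Chmp2b and Smad2 were without the call. The numbers were not taken as pairing the samples, since the deviations of same-numbered arrays correlated at 0.15, -0.10 and 0.03, and for numbers 2 and 3 a pair of unlike numbers correlated more highly, at 0.14 and 0.18. Signal near the receptor-gene level limits the fold of Lemd3, whose WT arrays lie below it.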
